A study of Homo sapiens with 16 samples.

Results

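The genes CD274, PDCD1LG2, CD276, VTCN1, CD40, TNFRSF9, TNFRSF14, PVR, NECTIN2 and LGALS9 encode immune checkpoint and costimulatory molecules that a tumor cell can carry on its surface or release. All 10 were found by their symbols among the 59428 genes of the count table. The RNA came from OVCAR3, a serous ovarian carcinoma line with wild type BRCA1, and UWB1.289, a serous ovarian carcinoma line with mutated BRCA1. Each line was kept for 96 h with the PARP inhibitor olaparib, at 7.5 µM for OVCAR3 or 3.5 µM for UWB1.289, or with DMSO, the solvent, as the control. Each of the 4 groups had 4 replicates, which gave 16 libraries primed at the poly(A) tail (QuantSeq), so that reads stand for transcript 3′ ends. The dose was the inhibitory concentration determined for that line, OVCAR3 grew in RPMI1640 with serum and insulin and UWB1.289 in a mixture of MEGM Bulletkit medium and RPMI1640 with less serum, and each BRCA1 state is represented by 1 line. Cell line, BRCA1 state, dose and medium therefore cannot be told apart in any comparison between the lines. The sources do not say whether the 4 replicates came from separately grown cultures, so the p-values measure the spread between these samples, which may be technical.

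T cells need a signal from their antigen receptor together with costimulation, and coinhibitory ligands on tumor cells dampen the same response. CD274 (PD-L1) and PDCD1LG2 (PD-L2) bind PD-1 on T cells, and CD276 (B7-H3) and VTCN1 (B7-H4) are further ligands of the B7 family, VTCN1 being known for its presence on ovarian carcinomas. CD40, TNFRSF9 (4-1BB) and TNFRSF14 (HVEM) belong to the TNF receptor family, of which CD40 and 4-1BB signal through TRAF adaptors to NF-kappa B. PVR (CD155) and NECTIN2 (CD112) are nectin-like and nectin adhesion molecules bound by the inhibitory receptor TIGIT and the activating receptor CD226. LGALS9 encodes galectin-9, a lectin that binds TIM-3 on T cells.

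In GENCODE release 44 on GRCh38 the genes lie on 6 chromosomes. CD274 (ENSG00000120217, chr9:5450503-5470566) and PDCD1LG2 (chr9:5510531-5571282) are neighbors on the forward strand with a gap of 39965 bases, and PVR (chr19:44643798-44666162) and NECTIN2 (chr19:44846175-44889223) lie 180013 bases apart, also on the forward strand. TNFRSF14 (chr1:2555639-2565382, forward), TNFRSF9 (chr1:7915871-7943165, reverse) and VTCN1 (chr1:117143587-117210960, reverse) share a chromosome. CD40 (chr20:46118271-46129863), CD276 (chr15:73683966-73714514) and LGALS9 (chr17:27629798-27649560) are on the forward strand. RefSeq promoter windows (GRCh38.p14) were available for 8 of the 10 genes, and CD40 and PDCD1LG2 had none. The windows of TNFRSF9, LGALS9, TNFRSF14 and CD276 lie wholly inside the GENCODE spans above. For these genes the bases before the outermost GENCODE start were therefore not searched. The 250 bases before the annotated start are printed here for 3 genes whose olaparib and DMSO libraries did not overlap in UWB1.289, TNFRSF9 (chr1:7940840-7941089, reverse strand), CD274 (chr9:5450292-5450541, forward strand) and LGALS9 (chr17:27630938-27631187, forward strand), each 5′ to 3′ with any motif match in capitals.
TNFRSF9: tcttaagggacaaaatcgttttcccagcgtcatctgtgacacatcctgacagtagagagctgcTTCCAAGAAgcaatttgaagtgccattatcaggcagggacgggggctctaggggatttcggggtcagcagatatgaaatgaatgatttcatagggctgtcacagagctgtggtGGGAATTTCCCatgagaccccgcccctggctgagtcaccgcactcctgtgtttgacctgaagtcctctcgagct
CD274: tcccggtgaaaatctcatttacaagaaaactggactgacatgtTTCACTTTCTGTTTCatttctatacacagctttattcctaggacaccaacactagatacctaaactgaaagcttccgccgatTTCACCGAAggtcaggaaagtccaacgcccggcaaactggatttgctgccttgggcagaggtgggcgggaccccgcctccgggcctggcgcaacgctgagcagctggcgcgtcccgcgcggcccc
LGALS9: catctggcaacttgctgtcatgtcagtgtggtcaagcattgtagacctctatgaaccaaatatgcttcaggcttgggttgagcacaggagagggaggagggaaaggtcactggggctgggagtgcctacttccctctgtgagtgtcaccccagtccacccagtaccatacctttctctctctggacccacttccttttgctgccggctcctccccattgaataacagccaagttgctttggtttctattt
Both strands were searched for GAAANNGAA, the core of the interferon-stimulated response element, for TTCNNNGAA, the interferon gamma-activated GAS element, and for the kappa B consensus. The TNFRSF9 window holds TTCCAAGAA, a GAS match, 179 to 187 bases before the start, and overlapping kappa B matches on the forward and reverse strands 64 to 74 bases before it. The CD274 window holds a pair of overlapping reverse-strand matches to the interferon-stimulated core, 193 to 207 bases before the start, and the GAS match TTCACCGAA, 117 to 125 bases before it. No match was found in the windows of LGALS9, PVR, NECTIN2 and VTCN1, which says only that these letters are not there. Among the 8 genes the interferon-stimulated core was found in 1, the GAS element in 2 and the kappa B consensus in 3 (TNFRSF9, TNFRSF14 and 1 of the windows of CD276). Of all 35116 windows of the same length, 6.88% held the interferon-stimulated core, 6.57% the GAS element and 9.96% the kappa B consensus, so none of these matches is rare, and binding at them was not measured.

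The libraries held 5599571 to 7730228 counts, no pair of libraries within a group was identical, and no library stood apart for these genes. Over all genes, pairs within a group were compared by a chi-square per gene for equal shares of the counts. OVCAR3 olaparib replicate 4 stood at 7.69 to 11.8 against replicates 1 to 3, which stood at 3.45 to 4.38 among themselves. In UWB1.289 with olaparib, replicates 3 and 4 stood at 3.02 and the other pairs at 6.25 to 7.66. Levels are given as CPM, counts scaled to library size with the TMM method. Of 8 ovarian carcinoma markers (PAX8, WT1, MUC16, EPCAM, KRT7, KRT8, KRT18 and CDH1), 8 had more than 3 counts in OVCAR3 with DMSO and 7 in UWB1.289 with DMSO. WT1, a transcription factor used to identify serous carcinoma, had 0 counts in the 4 DMSO libraries of UWB1.289 and 4 in its olaparib libraries, against 3107 counts in OVCAR3 with DMSO. The summed level of the 8 markers ranged from 4075 to 4329 CPM in OVCAR3 with DMSO and from 2592 to 2840 CPM with olaparib, and from 7395 to 8007 and 5809 to 7146 CPM in UWB1.289. The keratins KRT8 and KRT18 were differentially expressed downward in OVCAR3, at log2 fold changes of -1.05 and -1.02 (edgeR adjusted p = 2.26e-07 and 2.72e-09). They stood at the fold-change limit of 1, and KRT8 was at -0.97 without DMSO replicate 2 and -0.96 without olaparib replicate 4, and KRT18 at -0.98 without olaparib replicate 2. Their part in the values of the 10 genes was not tested. The summed level of 12 leukocyte markers ranged from 2.48 to 3.62 CPM in OVCAR3 with DMSO, 2.88 to 4.82 with olaparib, 8.71 to 12.96 in UWB1.289 with DMSO and 16.7 to 22.3 with olaparib. The sums in UWB1.289 came mainly from PTPRC (CD45) and CD14, whereas CD3E, MS4A1, NKG7 and FCGR3A, which define T, B and natural killer cells, were at 0 in both UWB1.289 groups. The summed level of 5 stromal and endothelial markers was 23.4 to 31.0 and 33.0 to 39.95 CPM in OVCAR3 with DMSO and olaparib, and 8.89 to 13.9 and 11.95 to 13.9 CPM in UWB1.289. The sums in OVCAR3 came mainly from COL1A1, at a mean of 24.4 CPM with DMSO and 36.1 CPM with olaparib. The endothelial markers CDH5 and PECAM1 were higher in UWB1.289, with 100 and 87 counts with DMSO against 1 and 0 in OVCAR3. VWF and PDGFRB had 6 and 0 counts in UWB1.289 with DMSO against 22 and 4 in OVCAR3. Fewer cells of a kind and less RNA per cell cannot be told apart in bulk RNA.

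Of the 10 genes, 6 were abundant enough to be tested in every comparison, and 3 were at or near the detection limit in most libraries. For CD40 and for PVR the 4 groups did not overlap and stood in the order OVCAR3 with DMSO, OVCAR3 with olaparib, UWB1.289 with DMSO and UWB1.289 with olaparib. The groups of LGALS9 did not overlap either, but here UWB1.289 with DMSO was lowest, followed by UWB1.289 with olaparib, OVCAR3 with DMSO and OVCAR3 with olaparib. CD276 and VTCN1 were higher in OVCAR3 with DMSO than in either UWB1.289 group, and the UWB1.289 groups overlapped each other. NECTIN2, TNFRSF14 and PDCD1LG2 overlapped between all neighboring groups in the order of their means.

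**Figure D1:**
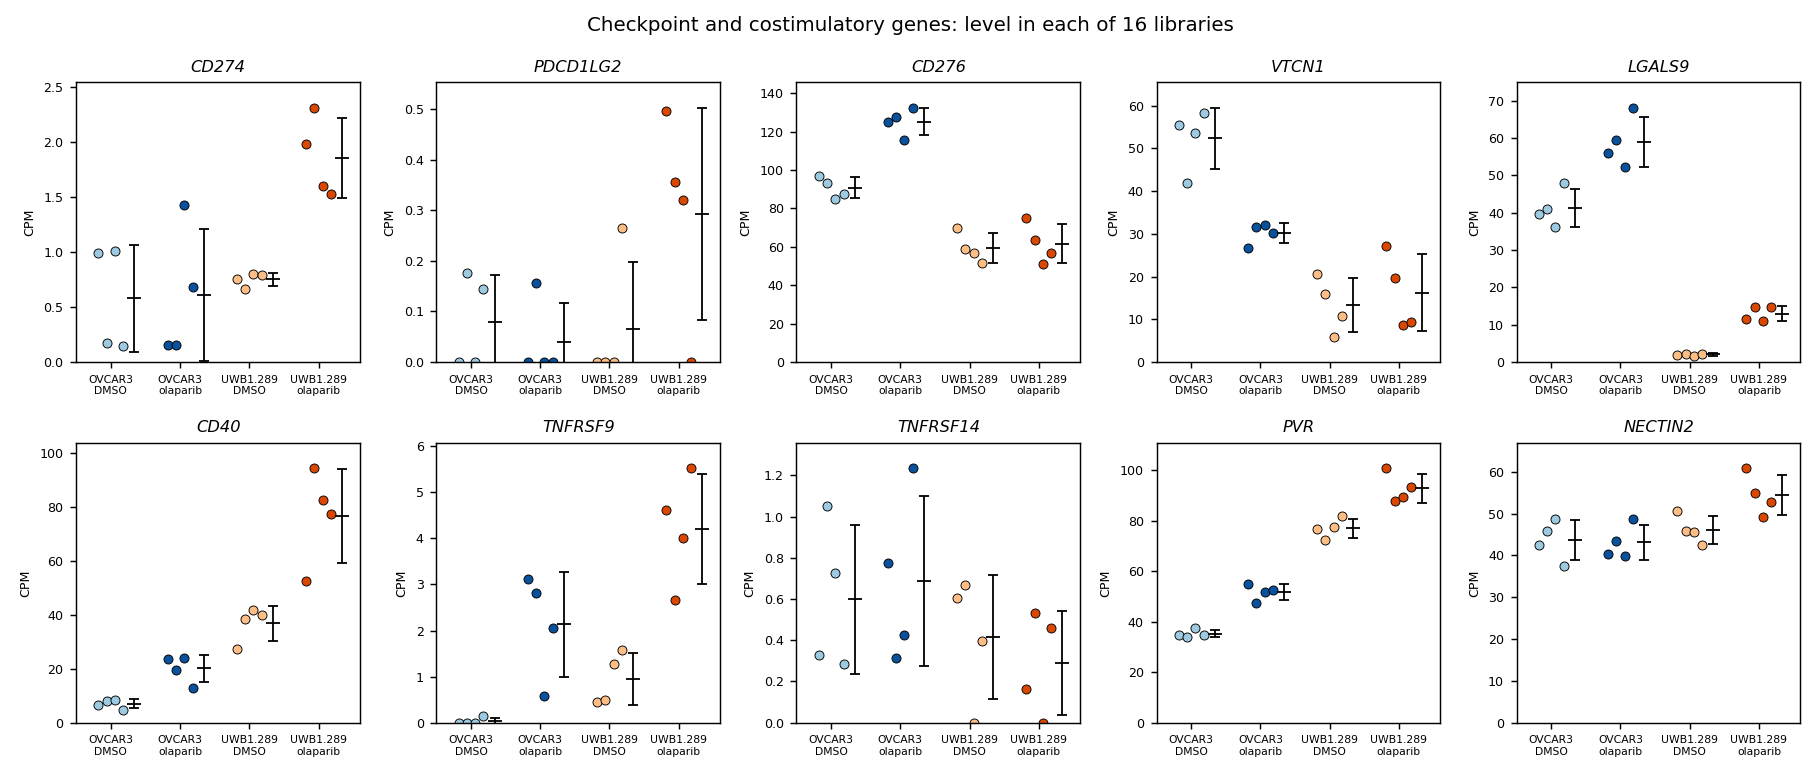
Level of each of the 10 genes in CPM (y axis, from 0, a scale per gene) in the 16 libraries, by line and treatment. Circles are libraries in the order of their replicate numbers and bars are the mean and SD of 4. CD40 rises over the 4 groups from a mean of 6.94 to 76.8 CPM, LGALS9 is lowest in UWB1.289 with DMSO at 1.99 CPM, and PDCD1LG2 stays below 0.5 CPM in every library.

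In OVCAR3, olaparib raised CD40 about 3-fold, and 4 further genes changed by less than 2-fold, CD276, PVR and LGALS9 upward and VTCN1 downward. NECTIN2 showed no change that passed the test. TNFRSF9, which was almost undetected with DMSO, was detected in all 4 olaparib libraries. PD-L1 and PD-L2 transcripts stayed at a few counts with either treatment.

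Differential expression required an edgeR adjusted p (Benjamini-Hochberg over all genes tested) under 0.1, a normalized count averaging over 10 and a log2 fold change above 1 or below -1. In OVCAR3, 6 of the 10 genes passed the filter on low counts, 1 of them was differentially expressed, and 5 reached an adjusted p below 0.1. Of all 13031 genes tested, 5.23% were differentially expressed and 31.5% reached an adjusted p below 0.1. The olaparib and DMSO libraries did not overlap for 5 of the 6 genes, against 25.7% of all genes tested. The median log2 fold change of the 6 was 0.49, beside -0.01 over all genes tested.

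Among the B7 ligands in OVCAR3, CD276 measured 97.1, 93.3, 84.9 and 87.5 CPM in the DMSO replicates 1 to 4 and 125, 127, 115 and 132 CPM in the olaparib replicates. Every olaparib library lay above every DMSO library, and the increase was 1.38-fold (log2 fold change 0.47, SE 0.0795, edgeR adjusted p = 1.96e-04). VTCN1 moved the other way, from 55.4, 42.0, 53.7 and 58.4 CPM with DMSO to 26.7, 31.5, 32.2 and 30.3 CPM with olaparib. All 4 olaparib libraries of VTCN1 lay below all 4 DMSO libraries, and its log2 fold change was -0.79 (SE 0.114, edgeR adjusted p = 3.26e-05). CD274 had 6, 1, 7 and 1 counts with DMSO and 1, 1, 10 and 5 with olaparib, and its mean CPM did not differ detectably at this depth (two-sided exact permutation test, p = 0.943). PDCD1LG2 had 2 counts in all with DMSO and 1 with olaparib, which is under the limit of 3 counts that a count of 0 allows.

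Of the TNF receptor family, CD40 measured 6.61, 7.88, 8.54 and 4.73 CPM with DMSO in OVCAR3 and 23.8, 19.7, 24.1 and 13.02 CPM with olaparib. Replicate 4 was the lowest of both groups and the groups did not overlap. The increase was 2.91-fold (log2 fold change 1.54, SE 0.210, edgeR adjusted p = 1.72e-05). TNFRSF9 had 0, 0, 0 and 1 counts with DMSO and 20, 18, 4 and 15 counts with olaparib. It was removed by the filter on low counts, so it was compared by itself: the groups did not overlap (two-sided exact permutation test, p = 0.0286, the lowest possible with 4 and 4 libraries), and the ratio of its levels was 53.8 with a 95% counting interval of 9.28 to 2162. With every gene tested, without the filter, its edgeR adjusted p was 5.14e-08. TNFRSF14 had 15 counts in all with DMSO and 19 with olaparib, with overlapping groups (exact permutation test, p = 0.714).

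The nectin-family ligands split in OVCAR3. PVR measured 34.7, 34.1, 37.5 and 34.9 CPM with DMSO and 55.0, 47.6, 51.7 and 52.8 CPM with olaparib, without overlap, a 1.47-fold increase (log2 fold change 0.55, SE 0.0957, edgeR adjusted p = 2.27e-04). NECTIN2 measured 42.5, 45.9, 48.7 and 37.4 CPM with DMSO and 40.3, 43.5, 39.9 and 48.8 CPM with olaparib. Its groups overlapped throughout, with a log2 fold change of -0.01 and a 95% interval of -0.22 to 0.20 (edgeR adjusted p = 0.954). PVR overlaps CEACAM19 on the same strand, but CEACAM19 held only 242 counts over the 16 libraries, and how reads in overlapping genes were counted is not stated.

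LGALS9 in OVCAR3 measured 39.7, 41.0, 36.1 and 48.0 CPM with DMSO and 56.0, 59.5, 52.3 and 68.1 CPM with olaparib. Replicate 4 was the highest of both groups, and the groups did not overlap. The increase was 1.43-fold (log2 fold change 0.52, SE 0.109, edgeR adjusted p = 0.00150). LGALS9 has near-identical copies, LGALS9B and LGALS9C, so its counts are uncertain to the extent that reads were shared between them. The copies held between 0 and 4 counts per group. LGALS9 also overlaps a protein-coding gene on the same strand, ENSG00000266728, which was not found in the count table.

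In UWB1.289, olaparib raised galectin-9 about 6-fold, 4-1BB about 4-fold and CD40 about 2-fold. PVR rose slightly, and CD276, VTCN1 and NECTIN2 did not pass the test. PD-L1 transcripts were higher in all 4 olaparib libraries than in any DMSO library, at levels of 4 to 13 counts per library. Of the 10 genes 7 were tested, 3 were differentially expressed, all upward, and 4 reached an adjusted p below 0.1, beside 2.21% and 13.9% of all 12748 genes tested. The olaparib and DMSO libraries did not overlap for 4 of the 7, against 14.7% of all genes tested, and their median log2 fold change was 0.28, beside -0.004 over all genes. TNFRSF9 passed the filter on low counts through its olaparib libraries, so that it could enter the test only as a gene that is higher there.

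LGALS9 in UWB1.289 was at 1.959, 2.17, 1.60 and 2.24 CPM with DMSO, which is 13, 13, 10 and 17 counts, and at 11.4, 14.8, 10.9 and 14.7 CPM with olaparib, which is 69, 83, 68 and 96 counts. The groups were far apart, a 6.43-fold increase (log2 fold change 2.68, SE 0.229, edgeR adjusted p = 1.59e-08). With olaparib LGALS9 was still below every OVCAR3 library.

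TNFRSF9 had 3, 3, 8 and 12 counts in the DMSO libraries of UWB1.289 and 28, 15, 25 and 36 counts in the olaparib libraries. The highest DMSO library lay below the lowest olaparib library, and the increase was 4.28-fold (log2 fold change 2.10, SE 0.394, edgeR adjusted p = 0.00108). CD40 measured 27.3, 38.5, 41.8 and 40.01 CPM with DMSO and 52.7, 94.3, 82.6 and 77.4 CPM with olaparib. Replicate 1 was the lowest of both groups, and all 4 olaparib libraries were above all 4 DMSO libraries (2.08-fold, log2 fold change 1.06, SE 0.149, edgeR adjusted p = 3.53e-05). CD40 stood close to the fold-change limit, and without DMSO replicate 1 or without olaparib replicate 2 it was 0.94 on the log2 scale, with edgeR adjusted p-values of 2.09e-04 and 7.85e-05. TNFRSF14 had 11 counts in all with DMSO and 7 with olaparib (exact permutation test, p = 0.543).

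CD274 had 5, 4, 5 and 6 counts with DMSO in UWB1.289 and 12, 13, 10 and 10 counts with olaparib, or 0.753 ± 0.0602 and 1.86 ± 0.362 CPM (SD, n = 4). The groups did not overlap (two-sided exact permutation test, p = 0.0286), and the ratio of levels was 2.44 with a 95% counting interval of 1.41 to 4.36. The gene was removed by the filter on low counts. With every gene tested, its edgeR p was 0.0174 and its adjusted p 0.184, so the difference in CD274 did not pass the correction over all genes. PDCD1LG2 had 2 counts with DMSO, both in replicate 4, and 7 with olaparib, and at these counts a difference was not detectable (exact permutation test, p = 0.143).

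CD276 in UWB1.289 measured 69.8, 58.9, 56.8 and 51.5 CPM with DMSO and 74.8, 63.5, 51.0 and 56.7 CPM with olaparib, with overlapping groups and a log2 fold change of 0.06 (95% interval -0.18 to 0.29, edgeR adjusted p = 0.833). VTCN1 measured 20.5, 16.02, 5.91 and 10.8 CPM with DMSO and 27.2, 19.8, 8.67 and 9.35 CPM with olaparib. Here the libraries followed their replicate number more than the treatment, replicates 1 and 2 being higher than replicates 3 and 4 in both groups. The log2 fold change of VTCN1 was 0.28 with a wide 95% interval of -0.33 to 0.90 (edgeR adjusted p = 0.641).

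**Figure D2:**
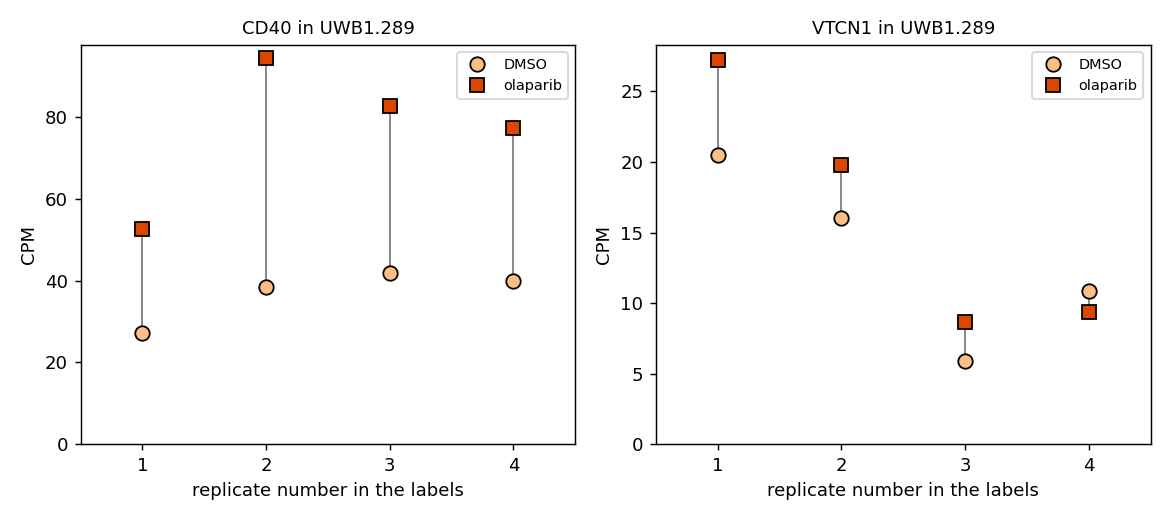
CD40 (left) and VTCN1 (right) in UWB1.289 in CPM (y axis, from 0) by replicate number (x axis), with DMSO as circles and olaparib as squares joined by a line within each number. CD40 is higher with olaparib in all 4 numbers, whereas VTCN1 spans 5.91 to 27.2 CPM across numbers and is higher with olaparib in 3 of 4.

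PVR in UWB1.289 measured 76.6, 72.2, 77.6 and 81.7 CPM with DMSO and 101, 87.7, 89.4 and 93.5 CPM with olaparib. The groups did not overlap, but the increase was only 1.21-fold (log2 fold change 0.27, SE 0.0862, edgeR adjusted p = 0.0516). The adjusted p of PVR rose to 0.109 without DMSO replicate 1, 0.154 without DMSO replicate 2, 0.104 without olaparib replicate 1 and 0.116 without olaparib replicate 4, and was 0.0256 with the replicate number as a block. NECTIN2 measured 50.5, 45.7, 45.5 and 42.5 CPM with DMSO and 60.8, 55.0, 49.1 and 52.9 CPM with olaparib, and 1 olaparib library lay within the DMSO range. Its log2 fold change was 0.24 (95% interval 0.05 to 0.44, edgeR adjusted p = 0.144, or 0.0815 with the replicate block).

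The leukocyte markers moved with olaparib in UWB1.289. CD14, the lipopolysaccharide coreceptor of monocytes, rose from 3.17 ± 1.12 to 7.71 ± 2.01 CPM (SD, n = 4; log2 fold change 1.28, edgeR adjusted p = 0.00374), while PTPRC measured 6.14 ± 1.05 and 7.89 ± 2.72 CPM. Of the other myeloid markers, CD68 had 16 counts with DMSO and 40 with olaparib, or 0.594 ± 0.237 and 1.64 ± 0.684 CPM, without overlap between the groups. ITGAM had 1 and 4 counts and LYZ 1 and 0, and CD68, ITGAM and LYZ were not tested. The part of such cells or of these genes' own regulation in the values of CD40, TNFRSF9, LGALS9 and CD274 was not tested.

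**Figure D3:**
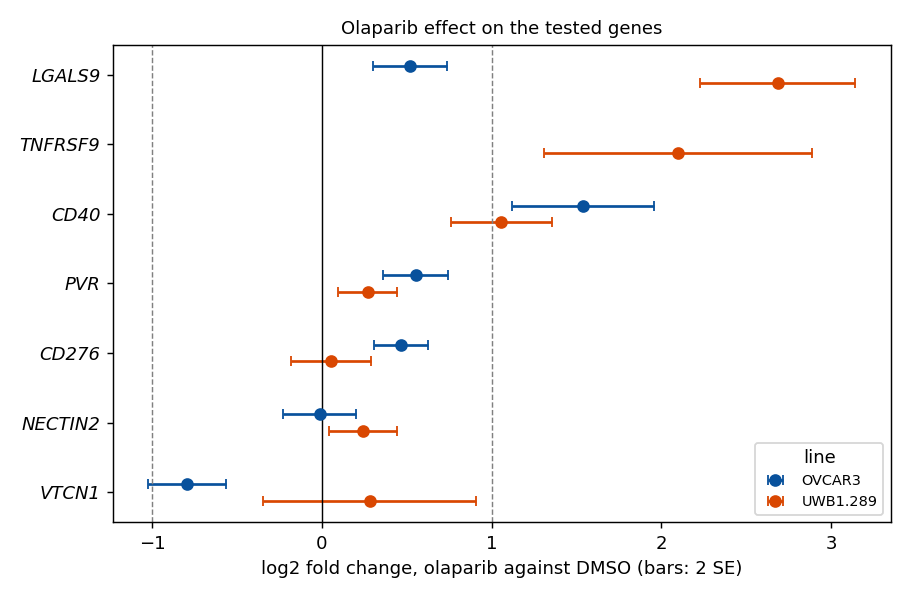
log2 fold change between olaparib and DMSO (x axis) for the genes tested in OVCAR3 (blue) or UWB1.289 (orange), with bars of 2 SE and dashed lines at the fold-change limit. LGALS9 lies at 0.52 in OVCAR3 and 2.68 in UWB1.289, VTCN1 at -0.79 and 0.28, and TNFRSF9 has a value only in UWB1.289.

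Whether olaparib acted differently on these genes in the 2 lines was tested as an interaction over all 16 libraries. LGALS9 rose more in UWB1.289 than in OVCAR3, and VTCN1 fell in OVCAR3 but not detectably in UWB1.289. CD40, PVR and NECTIN2 gave no difference between the lines that passed the test. Of the 7 genes tested, 3 were counted as different between the lines and 4 reached an adjusted p below 0.1, beside 3.66% and 10.9% of all 14243 genes. Both counts include TNFRSF9, which passed the filter on low counts through its olaparib libraries and had 0 to 1 counts per library in OVCAR3 with DMSO.

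For LGALS9 the olaparib effect was 4.48 times larger in UWB1.289 (log2 difference 2.16, SE 0.234, edgeR adjusted p = 1.63e-07), and the difference stayed between 2.06 and 2.24 under every alternative tried. By edgeR the log2 difference was 1.08 for VTCN1 (SE 0.364, adjusted p = 0.0698), -0.41 for CD276 (SE 0.146, adjusted p = 0.0885) and -3.10 for TNFRSF9 (SE 1.103, adjusted p = 0.0876). The value for TNFRSF9 rests on the single count in OVCAR3 with DMSO and depends on the prior count of the fit. These 3 differences are near the threshold and were lost when some single libraries were left out. The adjusted p of TNFRSF9 was between 0.116 and 0.185 without UWB1.289 DMSO replicate 3 or 4, UWB1.289 olaparib replicate 2 or 3, OVCAR3 DMSO replicate 1, 2 or 3, or OVCAR3 olaparib replicate 1 or 2. That of VTCN1 was between 0.102 and 0.230 without UWB1.289 DMSO replicate 3 or 4, UWB1.289 olaparib replicate 1 or 2, OVCAR3 DMSO replicate 1, 3 or 4, or OVCAR3 olaparib replicate 1 or 2. That of CD276 was between 0.102 and 0.205 without UWB1.289 DMSO replicate 1 or 2, UWB1.289 olaparib replicate 3 or 4, OVCAR3 DMSO replicate 2, 3 or 4, or OVCAR3 olaparib replicate 1, 2 or 4. With DESeq2 the adjusted p of VTCN1 was 0.238. Its lowest edgeR adjusted p, 1.81e-05, came from an alternative that kept all 16 libraries. The edgeR alternatives of that kind were the DESeq2 size factors, no filter and the replicate block. The lowest edgeR adjusted p of VTCN1 without a single library was 0.0187. The VTCN1 difference thus became weaker or stronger with the setting. CD40 had a log2 difference of -0.48 with a 95% interval of -1.02 to 0.06 (edgeR adjusted p = 0.335, or 0.0806 with the replicate block). PVR had a log2 difference of -0.28 (95% interval -0.52 to -0.04, adjusted p = 0.170) and NECTIN2 of 0.26 (-0.03 to 0.54, adjusted p = 0.332).

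Without olaparib the lines differed widely in these genes. UWB1.289 held about 5 times more CD40 and 2 times more PVR than OVCAR3, and far less galectin-9, B7-H4 and, to a smaller degree, B7-H3. Of 6 genes tested, 4 were differentially expressed and 5 reached an adjusted p below 0.1, beside 38.4% and 79.9% of all 13366 genes tested, so most genes tested differed between these lines too. The DMSO libraries of the lines did not overlap for 5 of the 6, against 69.4% of all genes tested. The median log2 fold change of the 6 was -0.27, beside -0.02 over all genes.

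LGALS9 had the largest difference of the 6, with 41.2 ± 5.02 CPM in OVCAR3 and 1.99 ± 0.290 CPM in UWB1.289 (SD, n = 4; log2 fold change -4.35, SE 0.177, edgeR adjusted p = 1.59e-19). VTCN1 was at 52.4 ± 7.17 and 13.3 ± 6.32 CPM (log2 fold change -1.98, SE 0.187, adjusted p = 7.55e-11), and CD276 at 90.7 ± 5.52 and 59.2 ± 7.69 CPM (log2 fold change -0.62, SE 0.0918, adjusted p = 5.61e-07). For these 3 genes each UWB1.289 library was lower than any OVCAR3 library. CD40 was higher in UWB1.289, at 36.9 ± 6.56 against 6.94 ± 1.68 CPM (log2 fold change 2.41, SE 0.167, edgeR adjusted p = 7.14e-14). PVR was higher there too, at 77.0 ± 3.89 against 35.3 ± 1.501 CPM (log2 fold change 1.12, SE 0.0890, adjusted p = 1.61e-12). NECTIN2 overlapped between the lines, at 46.1 ± 3.30 and 43.6 ± 4.83 CPM (log2 fold change 0.08, 95% interval -0.12 to 0.27, edgeR adjusted p = 0.498). TNFRSF9 had 26 counts in UWB1.289 and 1 in OVCAR3 with DMSO (two-sided exact permutation test, p = 0.0286, ratio 25.2 with a 95% counting interval of 4.14 to 1033). CD274 and TNFRSF14 overlapped between the lines (exact permutation tests, p = 0.429 and p = 0.457).

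The genes that carry the signal of CD40 and 4-1BB to NF-kappa B, and those around the interferon control of PD-L1, were followed in the same fits. Of 10 genes of CD40 and 4-1BB signalling, 10 were tested in OVCAR3, where 4 were differentially expressed upward, 7 reached an adjusted p below 0.1 upward and 1 downward, beside 5.23% and 31.5% of all genes tested. Their median log2 fold change was 0.78, beside -0.01 over all genes. BIRC3, an inhibitor of apoptosis bound to TRAF2 and itself an NF-kappa B target, rose from 0.463 ± 0.314 to 5.53 ± 0.664 CPM (log2 fold change 3.51, edgeR adjusted p = 3.46e-06). With 0 to 4 counts per DMSO library, BIRC3 passed the filter on low counts through its olaparib libraries, so that it could enter the test in OVCAR3 only as a higher gene. RELB and NFKB2, the transcription factor subunits of the noncanonical pathway, and MAP3K14, its kinase NIK, rose by 1.496, 1.24 and 1.30 on the log2 scale. TRAF2, TRAF3 and TRAF5 were higher by 0.77, 0.79 and 0.74, below the fold-change limit, and TRAF6 was lower at -0.62.

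In UWB1.289, 9 of these 10 genes were tested, 2 were differentially expressed upward and 6 reached an adjusted p below 0.1, all upward, beside 2.21% and 13.9% of all genes tested. Their median was 0.45, beside -0.004 over all genes. BIRC3 rose from 31.1 ± 3.99 to 122 ± 15.1 CPM (log2 fold change 1.98, edgeR adjusted p = 1.51e-11), and RELB from 24.9 ± 1.64 to 51.1 ± 2.53 CPM (log2 fold change 1.04, adjusted p = 2.41e-07). RELB is at the fold-change limit, and without DMSO replicate 3 its log2 fold change was 0.99. TRAF2, TRAF3, NFKB2 and BIRC2 were higher by 0.56, 0.37, 0.45 and 0.28. The increase of BIRC3 was smaller in UWB1.289 than in OVCAR3, by 1.53 on the log2 scale (log2 difference -1.53, edgeR adjusted p = 0.0142), from a DMSO level that was higher in UWB1.289.

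Of 7 genes of PD-L1 regulation, all were tested in both lines. In OVCAR3 0 of them were differentially expressed by edgeR or by DESeq2, beside 5.23% of all genes tested by edgeR, and 5 had an unadjusted p below 0.05. By edgeR 4 reached an adjusted p below 0.1 upward, IRF1 at 0.72, IFNGR1 at 0.65, JAK1 at 0.50 and IFNGR2 at 0.38. CMTM4 reached it downward at -0.38, beside 31.5% of all genes tested that reached it in either direction. In UWB1.289, 2 were differentially expressed upward, beside 2.21% of all genes tested. IRF1, a transcription factor that acts on the CD274 promoter, rose from 13.2 ± 1.91 to 35.1 ± 2.60 CPM (log2 fold change 1.42, edgeR adjusted p = 5.35e-08). IFNGR1, a chain of the interferon gamma receptor, rose by a log2 fold change of 1.09 (edgeR adjusted p = 0.00700). IFNGR1 fell below the fold-change limit at 0.91 without DMSO replicate 1, 0.95 without olaparib replicate 2 and 0.98 without olaparib replicate 4. CMTM6, which keeps PD-L1 protein at the cell surface, was lower at -0.24. The difference between the lines reached an adjusted p below 0.1 upward for IRF1 (log2 difference 0.70, edgeR adjusted p = 0.00760) and downward for CMTM6 (-0.32, adjusted p = 0.0460) and JAK1 (-0.32, adjusted p = 0.0967). Of all genes tested for this difference, 10.9% reached an adjusted p below 0.1. The medians over the 7 genes were 0.38 in OVCAR3 and 0.18 in UWB1.289, beside -0.01 and -0.004 over all genes.

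**Figure D4:**
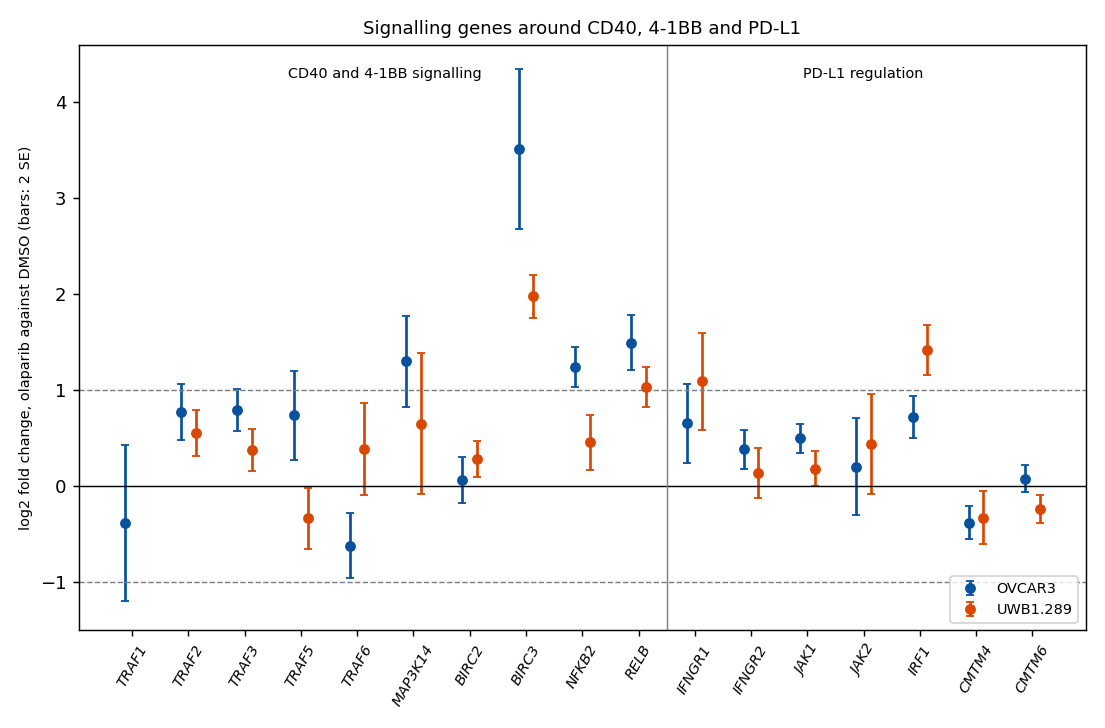
log2 fold change between olaparib and DMSO (y axis) for 10 genes of CD40 and 4-1BB signalling (left) and 7 genes of PD-L1 regulation (right) in OVCAR3 (blue) and UWB1.289 (orange), with bars of 2 SE and dashed lines at the fold-change limit. BIRC3 is highest in both lines at 3.51 and 1.98, and IRF1 lies at 0.72 in OVCAR3 and 1.42 in UWB1.289.

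The study's immune checkpoint list holds 75 other genes. In OVCAR3, 22 of them were tested and 4 were differentially expressed, all upward, beside 5.23% of all genes tested, with a median log2 fold change of 0.48, beside -0.01. TNFSF14, which encodes LIGHT, the ligand of TNFRSF14, rose from 1.31 ± 1.103 to 13.3 ± 3.24 CPM (log2 fold change 3.39, edgeR adjusted p = 6.01e-07), and TNFSF9, the ligand of 4-1BB, from 2.91 ± 0.970 to 7.09 ± 1.22 CPM (1.30, adjusted p = 0.00117). MICB, a stress ligand of the receptor NKG2D, rose from 4.29 ± 1.40 to 17.8 ± 2.79 CPM (2.06, adjusted p = 4.55e-07), and CD70, the ligand of CD27, from 5.18 ± 1.30 to 17.9 ± 0.690 CPM (1.79, adjusted p = 4.55e-07). In UWB1.289, 19 were tested and 2 were differentially expressed, TNFSF15 from 1.26 ± 0.980 to 4.86 ± 1.75 CPM (1.98, adjusted p = 0.00273) and TNFSF13B, which encodes BAFF, from 1.25 ± 0.769 to 3.58 ± 1.34 CPM (1.48, adjusted p = 0.0223), with a median of 0.31, beside 2.21% of all genes called and a median of -0.004. TNFSF14 in OVCAR3, with 2 to 17 counts per DMSO library, and TNFSF15 and TNFSF13B in UWB1.289, with 3 to 16 and 4 to 15, passed the filter on low counts through their olaparib libraries. The effect of olaparib differed between the lines for MICB (log2 difference -1.83, edgeR adjusted p = 4.46e-07) and TNFSF15 (2.27, adjusted p = 0.0118).

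Between the lines with DMSO, 21 genes of that list were tested, 6 were differentially expressed upward and 8 downward in UWB1.289, beside 38.4% of all genes tested. The highest were TNFSF18, the ligand of GITR, with 470 counts against 0 in OVCAR3 (at least 152-fold higher, taking 3 counts over the group as the limit), NT5E, the ectoenzyme CD73, at a log2 fold change of 4.61, MICB at 3.56 and ULBP1, a further NKG2D ligand, at 3.43. The lowest were CD200, with 1 count against 497 in OVCAR3 (ratio of OVCAR3 to UWB1.289 513, 95% counting interval 91.6 to 20300), NECTIN3 at -4.57, CD47, the signal against phagocytosis, at -2.77, and CD70 at -2.68. These 8 genes were picked among those called, so an edgeR adjusted p below 0.1 was given by that choice. Their DMSO libraries did not overlap between the lines, which the choice favored and which also held for 69.4% of all genes tested.

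Of 10 other B7 and nectin family genes, 5 were tested with olaparib in OVCAR3. By edgeR or by DESeq2 0 of them were differentially expressed, beside 5.23% of all genes tested by edgeR, and 3 had an unadjusted p below 0.05. NECTIN1 was higher at 0.83 (edgeR adjusted p = 0.0108). NECTIN4 and NECTIN3 were lower at -0.73 and -0.63 (edgeR adjusted p = 0.00120 and 1.22e-05), beside 31.5% of all genes tested at an adjusted p below 0.1. In UWB1.289, 4 were tested, and 1 had an unadjusted p below 0.05. By edgeR or by DESeq2 0 of them reached an adjusted p below 0.1, beside 13.9% of all genes tested by edgeR. Between the lines with DMSO, 6 were tested, 1 was differentially expressed upward in UWB1.289 and 4 downward, beside 38.4% of all genes tested. The 13 binding partners of these molecules on lymphocytes were mostly at or near 0. Only TNFSF9 and TNFSF14 were tested in OVCAR3, and no partner passed the filter on low counts in UWB1.289. CD40LG, the ligand of CD40, had 0 counts in all 16 libraries.

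The genes whose pattern over the 16 libraries was most like that of each member were sought by the root mean square difference of log2 CPM, each gene centred on its own mean. For CD40 these were PLAUR, IL4R and IL23A, at differences of 0.221, 0.313 and 0.316 on the log2 scale. For TNFRSF9 they were PI3, TNFAIP3 and ADAMTS9, at 0.489, 0.517 and 0.613. LGALS9 was nearest to RP11-283G6.5, GBP4 and C1S (0.522 to 0.566), and VTCN1 to CCDC157, DTNA and RNF157-AS1 (0.338 to 0.382). PVR stood close to STAT3, TNPO2 and TAF13 (0.112 to 0.115), NECTIN2 to POR, GPATCH4 and B4GALT2 (0.101 to 0.117), and CD276 to MAD2L2, R3HDM4 and CD151 (0.111 to 0.140). The points share their libraries and groups, so the likeness is a description of these 16 libraries.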

How the data were processed

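RNA of 16 libraries was sequenced by the authors as QuantSeq 3′ mRNA libraries, and, per the labels and the study's methods, reads were aligned to hg38 with STAR 2.7.9a and counted per gene with featureCounts 2.0.0 and GENCODE 38. The deposited values are raw counts, whole numbers without normalization, for 59428 genes, of which 30099 had no count. Strand, multiply matching reads and overlapping genes were treated in a way not given in the sources used here. Total counts were 5599571 to 7730228, so that genes near 10 counts carry a large counting error, and intervals and limits from counts cover counting error only. Groups followed the sample labels, with 4 libraries each.

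Counts were scaled with TMM, filtered with filterByExpr and tested on the whole table in R 4.3.3 with the quasi-likelihood F test of edgeR 4.0.16 and Benjamini-Hochberg adjustment. Olaparib was compared with DMSO in each line on its 8 libraries, the lines on their 8 DMSO libraries, and the olaparib effects as an interaction over 16. Genes were called with an adjusted p under 0.1, a log2 change of more than 1 up or down and more than 10 normalized counts on average. Members removed by the filter were compared with two-sided exact permutation tests of mean CPM (11 tests, smallest p possible 0.0286). The scripts were tested on simulated data. Alternatives were DESeq2 1.42.0, its size factors, no filter, other thresholds, 1 fit of 16 libraries, the replicate number as a block, and leaving out each library. Replicate numbers come from the labels. Deviations from the group means, over 9536 genes, correlated between treatments within a number at 0.133 to 0.224 in UWB1.289 and at 0.0346 to 0.165 in OVCAR3. Replicate 1 correlated more with a different number in both lines, at 0.157 against 0.139 in UWB1.289 and 0.123 against 0.0852 in OVCAR3. The main fits and the permutation tests paired no replicate numbers in either line, and the block was an alternative for both.

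The members, lists and motifs were chosen with earlier results of these data known. All 10 members were named. Of the study's checkpoint list, genes called with olaparib and the 4 highest and 4 lowest called between the lines were named. Of the signalling, PD-L1 and B7 lists, genes called or at an adjusted p below 0.1 where a member of the pathway was called were named, of the markers those with the highest counts or at 0, and of genes alike in pattern the nearest 3 with a prior count of 2. KRT8, KRT18, CD68, ITGAM, LYZ, the overlapping genes and the copies of LGALS9 were chosen after their values were seen. The checkpoint list is the study's own and is not independent evidence. A gene that falls under these lists is not reported here, and the list counts were made without it.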

Additional observations from a re-analysis of the deposited data

Results flagged for a closer look

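The effect of olaparib differed between the lines for 4 of the genes by the interaction test of edgeR, at an adjusted p below 0.1. Only LGALS9 kept this under every alternative, whereas VTCN1, CD276 and TNFRSF9 lost it without some single libraries. The log2 difference, UWB1.289 minus OVCAR3, was 2.16 for LGALS9, which rose in both lines and more in UWB1.289, and 1.08 for VTCN1, which fell in OVCAR3 and overlapped between treatments in UWB1.289. It was -0.41 for CD276, which rose in OVCAR3 and overlapped in UWB1.289. It was -3.10 for TNFRSF9, which was higher with olaparib in all 4 libraries of either line and had 1 count in OVCAR3 with DMSO, so that the size of this difference is poorly determined. In the 29 groups with enough counts that were searched for a single outlying library, none was found, although chance alone would mark about 1 group in 20.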

How the results depend on the processing

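The values of single genes kept their direction and their side of the adjusted p threshold in 80 of 84 alternatives in OVCAR3, 88 of 98 in UWB1.289, 84 of 84 between the lines and 113 of 147 in the interaction. Directions turned only for genes that had passed no test: without single libraries NECTIN2 in OVCAR3 ranged from -0.082 to 0.048, CD276 in UWB1.289 from -0.050 to 0.15, and VTCN1 in UWB1.289 from -0.090 to 0.57. With no fold-change limit 5 of the genes were called in OVCAR3, and with all 16 libraries in 1 fit 2 were called there, TNFRSF9 being the added gene. An average count above 50 left 1 gene called in UWB1.289, since TNFRSF9 and LGALS9 average fewer counts. At an adjusted p below 0.05 the interaction had 1 gene, LGALS9. Over all genes, an average count above 50 gave 285 called genes in OVCAR3, 141 in UWB1.289, 3245 between the lines and 297 in the interaction, and no fold-change limit gave 4066, 1760, 10497 and 1521. Leaving out 1 library at a time gave 1 to 3 called genes in the interaction and 1 to 4 at an adjusted p below 0.1, and 2 to 3 called genes in UWB1.289. The interaction runs lost TNFRSF9, VTCN1 or CD276 and the UWB1.289 runs lost CD40, and each has fewer samples. PVR in UWB1.289 had an adjusted p of 0.132 without the filter on low counts, and its interaction 0.0932 with DESeq2. TNFSF13B averaged 8.69 counts over 16 libraries and was not called in that fit.

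With the replicate block 1, 3, 4 and 3 of the genes were called in OVCAR3, UWB1.289, between the lines and in the interaction, as without it. It changed no call of a member and moved 2 genes past an adjusted p of 0.1, NECTIN2 in UWB1.289 (0.0815) and CD40 in the interaction (0.0806). With a prior count of 0.5, 2 of the 3 genes nearest to CD40 and VTCN1 and 1 of those nearest to TNFRSF9 and LGALS9 were again among the nearest 3. Depth limits CD274, PDCD1LG2 and TNFRSF14 most, at 13 counts or fewer per library.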
